A study of Mus musculus with 8 samples.

Results

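The Krüppel-like factor (KLF) genes described here are 10 genes chosen by name, Klf2, Klf3, Klf4, Klf5, Klf6, Klf7, Klf9, Klf10, Klf13 and Klf15, out of 27179 genes in the expression table. All are mouse genes on 10 different chromosomes, and 16 further genes of the Sp/KLF family were used for comparison. C2C12 cells, an immortalized mouse myoblast line, were grown on collagen-coated dishes and sampled in 2 states. In growth medium (GM) they were taken at 50% confluence in 10% fetal bovine serum, and after 3 days of differentiation medium (3d DM) they had passed 90% confluence before the change to 2% horse serum, so that serum, density and time in culture changed together. In each state poly(A) RNA from 2 samples was sequenced as input and, after immunoprecipitation with an antibody to N6-methyladenosine (m6A), as MeRIP-seq libraries, and nothing in the labels says that the replicates came from separate cultures. The p-values below therefore measure only the spread between these samples, which may be technical. In the main expression fit this spread was pooled over genes of like level, with no weight on a gene's own. Leaving out a 3d DM library gave a gene's own spread weight, so calls lost in that way reflect a changed fit as well as the missing library.

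KLF proteins are transcription factors that bind GC-rich and CACCC-type DNA through zinc fingers at their carboxyl end, while the rest of the protein recruits activators or repressors. Members are usually grouped by that remaining part. Klf2, Klf4, Klf5, Klf6 and Klf7 are mostly known as activators, Klf3 as a repressor that binds CtBP, and Klf9, Klf10 and Klf13 as factors that bind Sin3A, while Klf15 is known in muscle as a glucocorticoid-induced regulator of amino acid use. In muscle cells Klf2 and Klf4 have been placed downstream of the kinase ERK5 during myoblast fusion, and Klf5 has been tied to the differentiation program.

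The labelled states were checked by marker genes. The 6 differentiation markers (Myog, Myh3, Ckm, Mymk, Myh1, Acta1) rose in 3d DM and the 3 cycling markers (Mki67, Top2a, Ccnb1) fell, with limma at an adjusted p of 0.05, although the calls for Myog, Ckm and Mymk were lost without either 3d DM library (adjusted p up to 0.0836, 0.0705 and 0.0874) and that of Top2a without 3d DM replicate 1 (0.0510). Of 3 myoblast markers, Myf5 fell (log2 fold change −2.14, limma adjusted p = 0.000118) and Des rose (1.36, adjusted p = 0.00610). Myod1 was not called (−0.105, adjusted p = 0.921). The Myf5 call was lost without 3d DM replicate 1, and the Des call when any library but GM replicate 1 was left out. The GM libraries were unlike each other in the differentiation markers. The summed value of the 6 differentiation markers was 4678 in GM replicate 1 and 1238 in GM replicate 2, and Myog stood at 1008 and 220.8. Only Myh1 went the other way, at 160.7 and 186.6. Of 11 markers of other cell types none passed the filter on low values, and their summed value lay between 18.1 and 37.0 in every library. In bulk RNA, fewer cells of a type and less RNA per cell cannot be told apart.

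Klf5, an activator tied to growth and differentiation in several tissues, was the member that rose on differentiation. Its normalized RNA-seq value (Entrez Gene 12224, chr14:99298691-99315036, plus strand, mm10) was 267.8 and 388.3 in GM against 1068 and 1517 in 3d DM. Both 3d DM libraries lay above both GM libraries. The mean went from 328.1 ± 85.2 to 1293 ± 317 (SD, n = 2 each), a log2 fold change of 1.98 ± 0.44 (SE) on the log2(value + 1) scale, or 3.94-fold (limma, adjusted p = 9.418e-05). Of the 9 tested members 1 was called, beside 17.0% of all 11406 genes tested, with 7.01% called higher and 9.96% called lower in 3d DM. With 1 library left out the log2 fold change stayed between 1.71 and 2.25, and it was 2.23 without 3d DM replicate 1. The call was kept without GM replicate 2 and lost without GM replicate 1 or either 3d DM library. Without a 3d DM library a gene's own spread had weight, unlike in the main fit, so the losses there do not measure the library alone.

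Klf2 and Klf6 stood lower in 3d DM without passing the test on the deposited values. Klf2, which in endothelium is induced by blood flow (Entrez Gene 16598, chr8:72319033-72321656, plus strand), had values of 868.5 and 566.0 in GM against 254.2 and 438.5 after differentiation. Klf6, an injury- and growth-responsive factor (Entrez Gene 23849, chr13:5861482-5870394, plus strand), went from 2820 and 2213 to 1204 and 1477. In both genes the states did not overlap, as in 37.0% of tested genes in this direction, while Klf5 was the single member with 3d DM above GM, as were 16.8% of tested genes. In all, the states did not overlap in 3 of 9 members, beside 53.8% of tested genes. The log2 fold changes were −1.07 ± 0.45 (SE, limma adjusted p = 0.0824) for Klf2 and −0.91 ± 0.42 (adjusted p = 0.132) for Klf6.

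Whether these genes passed depended on the scale of the table. On the deposited scale the median tested gene stood at a log2 fold change of −0.224, and median-of-ratios scaling, which sets the typical gene equal between libraries, moved that median by 0.227 to 0.003. The log2 scaling factors were 0.234 and 0.001 for the GM libraries and −0.363 and 0.141 for 3d DM, so replicates of a state differed in scale as well. Every tested member had a higher deposited value in 3d DM replicate 2 than in 3d DM replicate 1. Relative to the typical gene Klf2 fell by 0.84 (limma, adjusted p = 0.0413) and Klf6 fell by 0.68 (adjusted p = 0.0397), and Klf5 rose by 2.21 (adjusted p = 0.00559). The falls of Klf2 and Klf6 were thus smaller than on the deposited scale. Their spread between replicates was smaller too, with the Klf2 SD going from 213.9 to 122.3 in GM and from 130.3 to 50.0 in 3d DM. A gene's own spread also had weight in this fit, unlike in the main fit. The members called then numbered 3 of 9, beside 23.2% of all tested genes. On the same scale without limma's intensity trend, a setting chosen after seeing the data, the adjusted p was 0.0701 for Klf2 and 0.0760 for Klf6, and 1 member, Klf5, was called. After this scaling the 3d DM libraries stood at 326.9 and 397.6 for Klf2 against 738.5 and 565.6 in GM, and at 1374 and 1376 for Klf5 against 227.7 and 388.1.

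Klf4, one of the reprogramming factors of pluripotency, and Klf7, best known from neurons, completed the activators. Klf4 (Entrez Gene 16600, chr4:55527143-55532466, minus strand) had values of 1837 and 704.5 in GM against 903.3 and 1351 after differentiation. The GM libraries enclosed the 3d DM libraries, and GM replicate 1 had the highest value of the 4. The differentiation markers other than Myh1 also stood higher in GM replicate 1 than in GM replicate 2. Its log2 fold change was −0.04 ± 0.43 (SE, limma adjusted p = 0.971) and turned to 0.19 with median-of-ratios scaling and to 0.65 without GM replicate 1. The part of the higher differentiation markers of GM replicate 1 in this spread was not tested. Klf7 (Entrez Gene 93691, chr1:64029447-64122282, minus strand) was the lowest of the tested members, at 91.4 and 100.3 in GM against 49.3 and 92.9 in 3d DM, and its states overlapped after scaling (77.7 and 100.3 against 63.4 and 84.3).

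The CtBP-binding repressor Klf3 (Entrez Gene 16599, chr5:64803388-64832901, plus strand) stood at 477.5 and 270.0 in GM against 446.1 and 704.0 in 3d DM, and the states overlapped. Its log2 fold change was 0.64 ± 0.45 (SE, limma adjusted p = 0.396). The Sin3A-binding members all had positive fold changes and none passed the test. Klf10, first described as an early gene induced by TGF-beta (Entrez Gene 21847, chr15:38291463-38300706, minus strand), had 368.8 and 474.7 before against 470.8 and 856.7 after differentiation, a log2 fold change of 0.60 ± 0.44. Klf13 (Entrez Gene 50794, chr7:63886351-63938915, minus strand) had 581.3 and 628.2 against 621.4 and 879.2, and Klf9, a target of glucocorticoid and thyroid hormone (Entrez Gene 16601, chr19:23141226-23168134, plus strand), had 220.9 and 128.5 against 162.7 and 219.0. Klf9 changed sign without 3d DM replicate 2 (−0.05) and without GM replicate 2 (−0.23). Klf15 (Entrez Gene 66277, chr6:90462576-90475238, plus strand) was listed at 0 in all 4 libraries and was not tested.

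**Figure D1:**
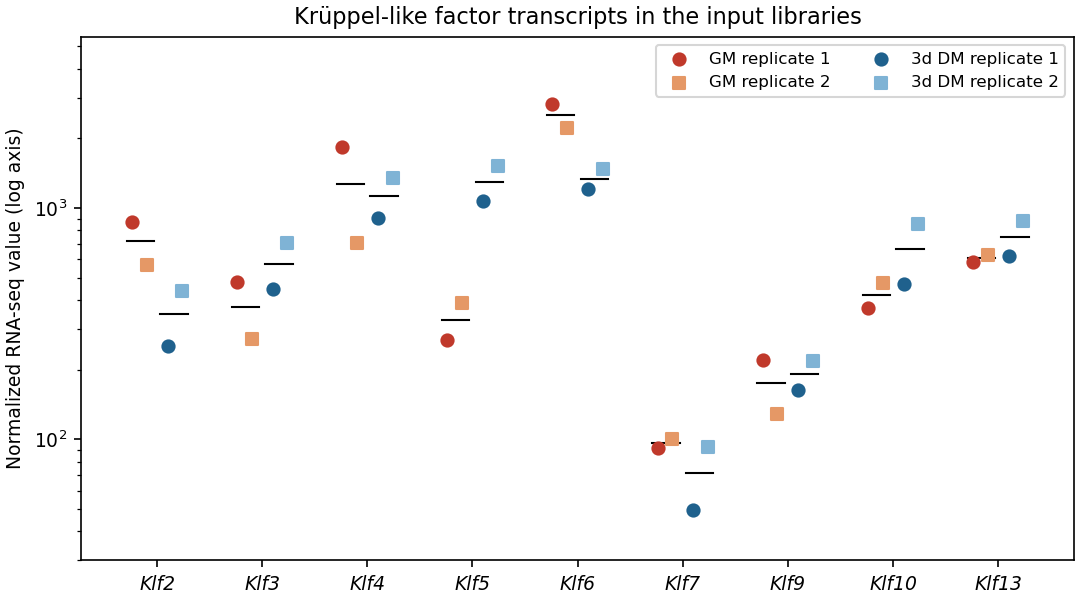
Normalized RNA-seq value on a log axis for the 9 tested members in the 2 GM and 2 3d DM input libraries, with 1 point for each library and a bar for the mean of each state. Klf5 lies higher and Klf2 and Klf6 lie lower in both 3d DM libraries, while the states overlap in the other 6 members.

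With median-of-ratios scaling the states stopped overlapping in Klf3, Klf9, Klf10 and Klf13 as well, with 3d DM above GM in each. Klf3 then stood at 406.0 and 269.8 against 573.8 and 638.5, and Klf10 at 313.6 and 474.3 against 605.5 and 776.9. Klf13 stood at 494.2 and 627.8 against 799.1 and 797.4, and Klf9 at 187.9 and 128.4 against 209.3 and 198.6. The overlap of these genes on the deposited scale thus included the difference in scale between libraries. Thus 5 members lay above and 2 below GM without overlap, beside 33.9% and 33.2% of all tested genes. The number of members with a positive log2 fold change went from 5 to 6 of 9, the change being in Klf4, and the members' median from 0.16 to 0.39.

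**Figure D2:**
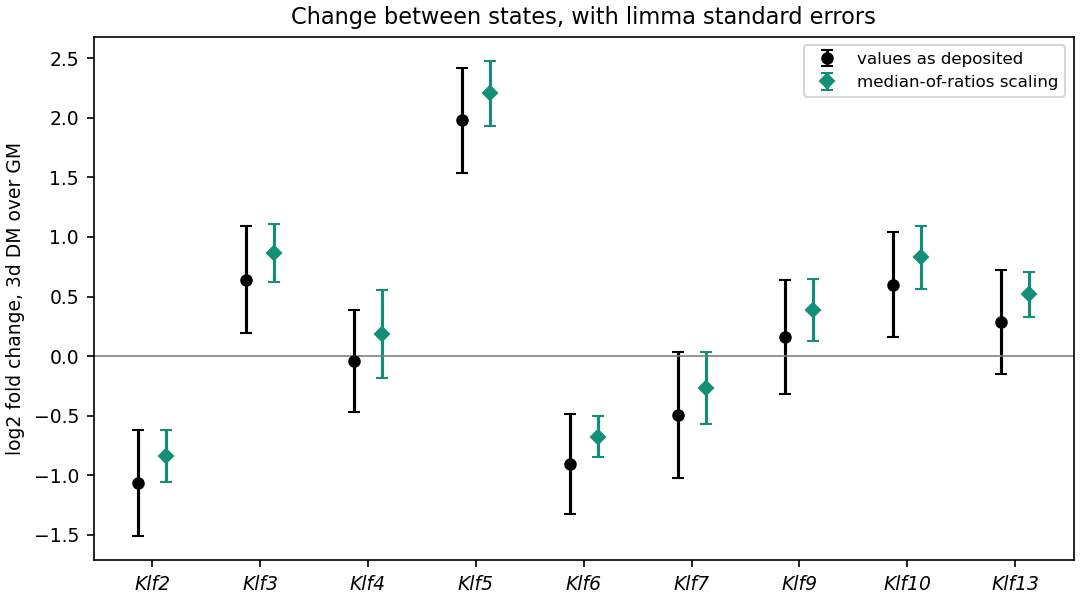
Log2 fold change of 3d DM over GM with limma standard errors for the 9 tested members, on the deposited values (circles) and after median-of-ratios scaling (diamonds). Rescaling moves every member up by about the same step, which takes Klf4 from −0.04 to 0.19, and Klf5 stands apart on both scales.

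The members were also ordered by level per kilobase of annotated exons, a rough scale since exons of all isoforms were summed. In GM, Klf6 was highest with 573.1 ± 97.8 per kb (SD, n = 2), followed by Klf4 with 416.8 ± 262.6 and Klf2 with 388.3 ± 115.8, and neighbours among these 3 overlapped. They were set apart from Klf10, whose mean was 100.9 per kb, and the order went on with Klf13, Klf5, Klf9, Klf3 and Klf7, in which only Klf9 and Klf3 overlapped as neighbours. In 3d DM the gap was gone. Klf4 (369.7 ± 103.8 per kb), Klf6 (305.3 ± 44.0), Klf5 (248.5 ± 61.0), Klf2 (187.5 ± 70.6), Klf10 (158.8 ± 65.3) and Klf13 (99.6 ± 24.2) formed a row in which each overlapped the next. These overlaps were between libraries of different scale. Within each 3d DM library the order was the same, from Klf4 to Klf13 at 296.3 to 82.5 per kb in replicate 1 and 443.1 to 116.7 in replicate 2. Klf5 thus moved from the sixth to the third place, and Klf7 stayed lowest of the 9 at 11.8 and 8.75 per kb.

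All 9 members with measurable RNA had m6A peaks. A peak in the deposited lists is a stretch of a transcript enriched in immunoprecipitated over input RNA, and its fold enrichment is the ratio of the 2. Klf2, Klf3, Klf4, Klf5, Klf6, Klf7, Klf9, Klf10 and Klf13 had a peak in each of the 4 libraries, beside 42.0% of all genes tested for expression and 47.7% of those with a mean value in the members' range. Klf15 had none in any library. Among the 9 tested Sp/KLF relatives, 2 (Sp1 and Sp3) had a peak in all 4 libraries. A peak line over both coding sequence (CDS) and 3′ UTR was found in all 4 libraries in 6 members, Klf2, Klf3, Klf4, Klf5, Klf7 and Klf10, beside 13.6% of tested genes. Since a peak needs enough reads, presence is bound to expression, and the read numbers behind the peaks are unknown.

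After lines that share bases were merged, the members together had 21 and 19 distinct peaks in the GM libraries and 20 and 17 after differentiation. The means of 20.0 ± 1.4 and 18.5 ± 2.1 (SD, n = 2) differed by less than the spread, with an exact two-sided permutation p of 0.667, where 0.33 is the smallest p that 2 against 2 libraries can give. By library, a member had 1 to 4 peaks.

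The 9 transcripts divided by where the peaks lay. Klf3, Klf4, Klf7 and Klf10 had at least 50% of the last 250 nt of the CDS under a peak in all 4 libraries, as did 14.1% of 8482 tested genes with a placed transcript. In Klf3 and Klf4 the cover of this window was 100% in every library. In Klf10 it was 100% and 72.0% in GM and the same in 3d DM, and in Klf7 it was 100% in 3 libraries and 64.4% in 3d DM replicate 2. Klf5 had a peak upstream in the CDS and another across the CDS end, which left 23.6% to 64.4% of the window covered. In Klf6 the upstream peak reached into the window and the next began in the 3′ UTR, with cover of 14.4%, apart from GM replicate 2, where the second peak began in the CDS and cover was 76.4%. Klf2 had 27.2% in GM replicate 1 and 3d DM replicate 2, 15.2% in the other 3d DM library and 100% in the other GM library. Klf9 had no cover there at all, its peaks being in the 3′ UTR in every library, and Klf13 had from 0.0% to 29.6%, with a broad peak that began near the stop codon. On Klf4 the peaks extended over 58.5% to 75.3% of the whole transcript, and on Klf9 over 6.7% to 12.0%.

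**Figure D3:**
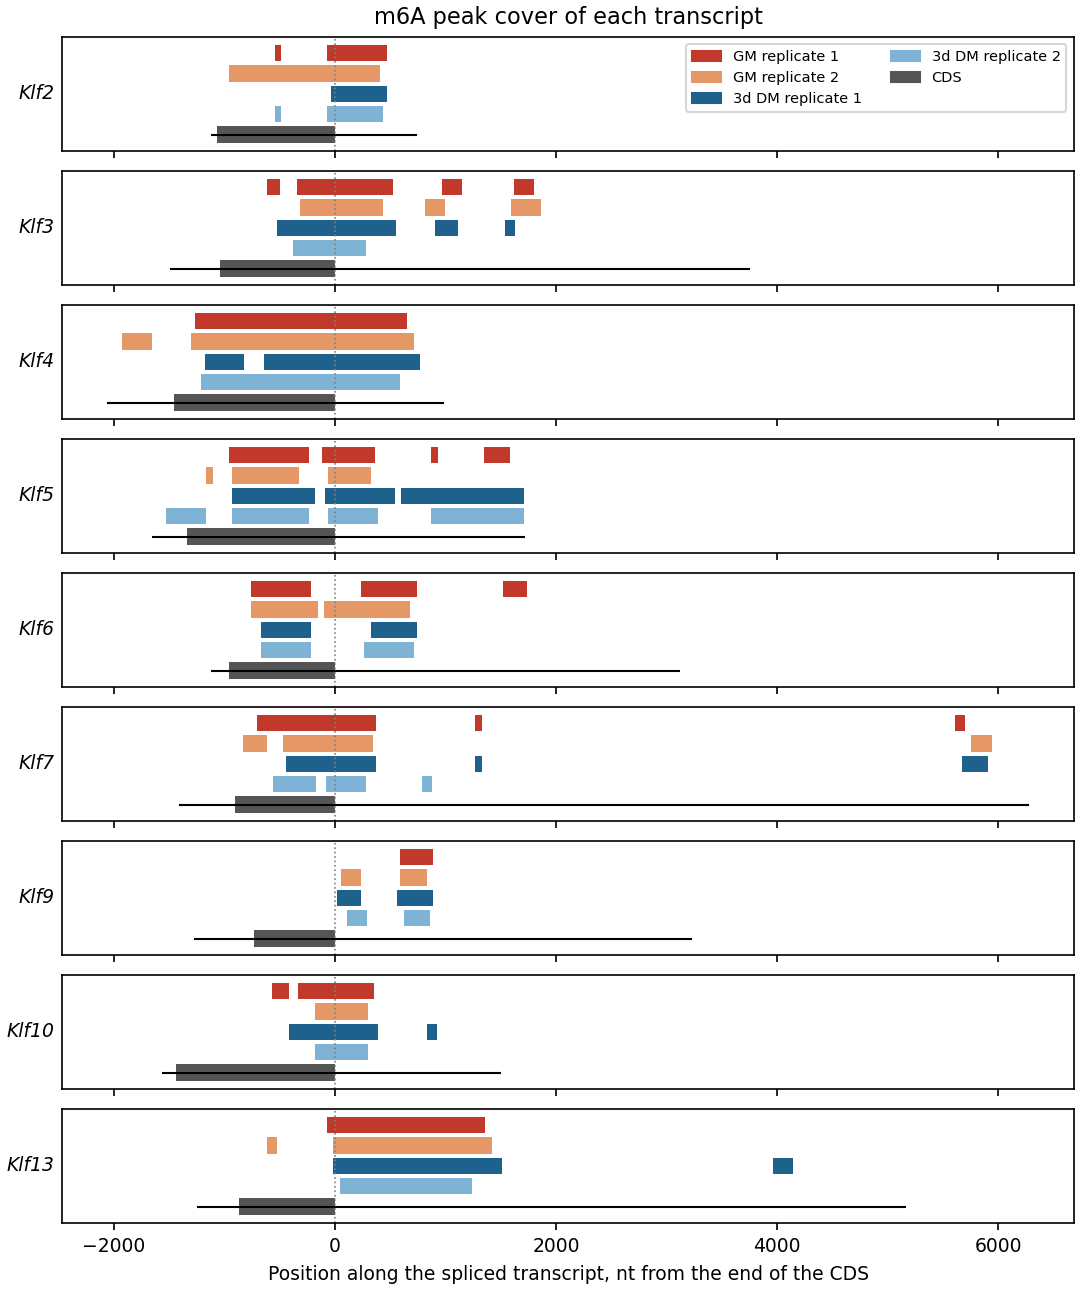
Peak cover along the spliced transcript of 9 members, in nt from the end of the CDS, with 1 bar row for each library above the transcript line and the CDS as a grey bar. Peaks cross the CDS end in all 4 libraries on Klf2, Klf3, Klf4, Klf5, Klf7 and Klf10, lie downstream of it on Klf9, and on Klf6 cross it in GM replicate 2 alone.

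The zinc finger sequence gives some members a coding stretch that can be compared directly. m6A is deposited mainly at DRACH sequences, of which GGACT is a preferred form, and a GGACT of the Klf7 CDS has its A at 185 nt before the CDS end, in a stretch under a peak in all 4 libraries. The 21 bases most like that stretch, within the last 300 nt of the CDS, are shown for the 7 members in which they cross an exon junction at the same base, after base 20, on the transcript strand to compare the letters at the GGACT place, which are in capitals. They were read from the mm10 genome with GENCODE M21 transcripts.
Klf7: ccaccagaGGACTcacacagg
Klf5: tcacctgaGGACTcatacggg
Klf10: ccacgtgaGGACAcacacagg
Klf4: acacctgcGAACTcacacagg
Klf3: acacagaaGAACTcatacagg
Klf6: acatcagcGCACTcacacagg
Klf2: gcatctgcGTACAcacacagg
The Klf7 stretch spans chr1:64042437-64078726 on the minus strand, intron included. The stretch lies 185 to 191 nt before the CDS end in 6 of the 7 and 269 nt before it in Klf10, and 15 to 18 of the 21 bases matched Klf7. The nearest matches of Klf9 and Klf13 crossed no junction and lay nearer the CDS end, so they were not taken as the same place. The sequence GGACN with a last base other than G, the form searched below, stood there in Klf7, Klf5 and Klf10, and these differed in cover. Its A was under a peak in all 4 libraries in Klf7, in GM replicate 1 and 3d DM replicate 1 in Klf10, and in 3d DM replicate 1 alone in Klf5. The GAACT of Klf3 and Klf4, which is also a DRACH sequence, was under a peak in all 4 libraries, and GCACT in Klf6 and GTACA in Klf2, which are not, were under a peak in GM replicate 2. Klf10 held the GGACN form once more, with its A 179 nt before the CDS end (chr15:38296074-38296094, minus strand). That A was the first base of the peak in GM replicate 2 and 3d DM replicate 2, and lay inside it in the other 2 libraries.
Klf10 nearer the stop codon: acaccggcGGACAcacacagg
Peaks are much wider than a site, so cover of a stretch does not place a modified base in it.

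Counted by the A, GGACN with a last base other than G, searched on the transcript strand, occurred under a peak of all 4 libraries 34 times on 7 of the 9 members. Klf13 held 11, Klf4 8, Klf6 6, Klf2 and Klf7 3 each, Klf10 2 and Klf5 1, while Klf3 and Klf9 held none. Of 2770 genes with as many shared bases (211 to 1591 nt), 86.6% held at least 1. GGACT itself was found in Klf4, Klf6, Klf7 and Klf13, and in 52.1% of those genes. The GGACT sites of these members in the 3′ UTR, with the most upstream of Klf4, are printed with the motif in capitals, to show where the preferred form lies outside the zinc finger stretch.
Klf4 in the CDS (chr4:55530145-55530165, minus strand): ccccaccaGGACTacccctac
Klf4 in the 3′ UTR (chr4:55527794-55527814, minus strand): acatgcccGGACTtacaaaat
Klf6 in the 3′ UTR (chr13:5867913-5867933, plus strand): gtgtgaaaGGACTttctggtg
Klf7 in the 3′ UTR (chr1:64035566-64035586, minus strand): agagggctGGACTtcaggcgg
Klf13 in the 3′ UTR (chr7:63890558-63890578, minus strand): atcccacaGGACTgatggtgg
Klf13 further into the 3′ UTR (chr7:63890475-63890495, minus strand): agagacaaGGACTgctgctct
The A of these sites lies 497 nt before the CDS end in the first Klf4 site and 321, 640, 137, 940 and 1023 nt after it in the others, in the order printed. On the 9 transcripts together the GGACN sites were found at 4.35 per kb under a peak of any library and at 3.18 per kb elsewhere, and over all genes with a placed transcript at 4.48 and 3.42 per kb. The members were thus near the background in this respect.

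Fold enrichment could be compared in 11 regions with a peak in all 4 libraries, on 9 members. A region's value was the highest fold of its lines, which can come from a short line or another isoform, so the fold of the line with the lowest p-value was taken as well, an alternative chosen after seeing the data. Klf13 had the highest fold of the members in replicate 2 of each state. Klf7 was higher in GM replicate 1 (20.3) and Klf9 in 3d DM replicate 1 (12.5). The Klf13 region at the start of the 3′ UTR (chr7:63889997-63891583) was enriched 15.2-fold and 41.5-fold in GM against 10.4-fold and 23.2-fold in 3d DM. The highest fold of Klf13 lay between the 84.2 and 99.7 percentile of genes with a peak in the same library. The GM and 3d DM values overlapped, and replicate 2 was above replicate 1 in each state.

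In the Klf7 region (chr1:64035342-64120922, introns included) the highest folds were 20.3 and 14.1 in GM against 7.72 and 7.93 in 3d DM. The value of 14.1 came from a line of 175 nt on another isoform, and by the line with the lowest p-value the folds were 20.3 and 5.59 against 7.72 and 4.68, which overlap. The log2 difference of −1.11 ± 0.60 (SE, limma adjusted p = 0.996, unadjusted p = 0.0867) was the largest of the 11 in size, and became −0.83 by that line and −0.68 by the median of the lines.

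Klf4 was alike in this. In its region from the 5′ UTR to the 3′ UTR (chr4:55527353-55530978) the highest folds were 14.3 and 9.39 against 6.88 and 9.04, where 9.39 came from a line of 267 nt on another isoform. On the line with the lowest p-value, which spans CDS and 3′ UTR, they were 14.3 and 6.03 against 6.88 and 9.04, and the states overlapped. The log2 difference went from −0.56 to −0.24, and to −0.01 by the median of the lines.

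In the CDS region of Klf6 (chr13:5861841-5866660) the folds were 5.02 and 3.98 against 2.65 and 3.30, and both 3d DM libraries lay below both GM libraries. With a single line in each library, the choice of line could not change these values. Klf10 (5.03 and 5.63 against 4.48 and 4.95, chr15:38292207-38296924) did so by the highest fold and by the lowest p-value, but its difference turned from −0.18 to 0.39 by the median of the lines. In Klf3 (chr5:64822239-64829709) the folds were 5.78 and 5.62 against 5.47 and 3.78, and 5.78 and 5.02 against 5.34 and 3.66 by the lowest p-value. By the highest fold 5 of the 11 regions were lower in both 3d DM libraries, beside 21.8% of all 6055 regions tested, and none was higher in both, beside 9.13%. By the lowest p-value it was 2 of the 11, Klf6 and Klf10, beside 21.4%, and by the median of the lines it was 2, Klf6 and Klf7, beside 21.6%.

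No tested region passed in limma, of the members or of any gene, and 208 regions, or 3.44%, had an unadjusted p under 0.05, none of them on a member. Only regions with a peak in all 4 libraries were tested, 6055 of 19683. A peak lost in 1 state was thus not in the test. The median log2 difference of the tested regions was −0.106. Klf5, whose RNA rose, had folds of 5.04 and 4.58 against 3.58 and 4.64 in its upstream region (chr14:99301537-99313151) and of 7.18 and 3.85 against 4.39 and 4.07 at the CDS end (chr14:99313211-99313869). Both overlapped between states, with log2 differences of −0.24 ± 0.42 and −0.32 ± 0.46 (SE). A Klf5 peak further into the 3′ UTR (chr14:99313929-99315036) was called in GM replicate 1 and in both 3d DM libraries. In the Klf2 region (chr8:72319458-72321388) the folds were 3.96 and 4.39 against 2.96 and 6.68, the last from a line of 60 nt, in place of which the line over the CDS end had 4.38. In the 3′ UTR region of Klf9 (chr19:23165475-23165804) they were 6.12 and 4.58 against 12.5 and 4.59, the 3d DM libraries being on either side of GM replicate 1. The second Klf6 region (chr13:5866720-5868027) had 7.77 and 2.84 against 4.14 and 4.63.

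**Figure D4:**
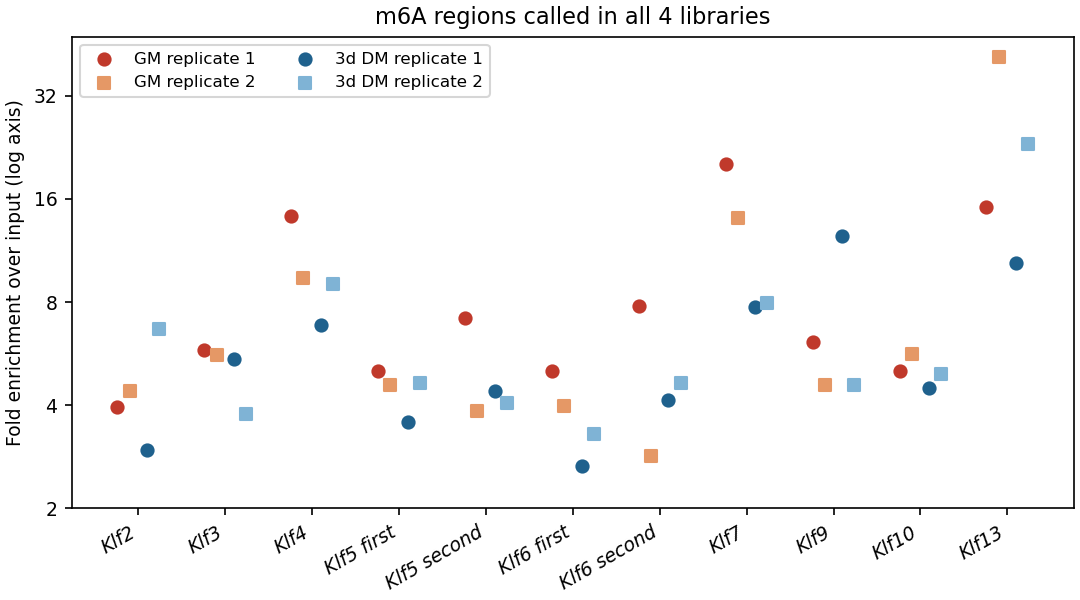
Highest fold enrichment of immunoprecipitated over input RNA on a log axis in the 11 regions of 9 members with a peak in all 4 libraries, with 1 point for each library. Klf13 and Klf7 reach the highest folds, and both 3d DM points lie below both GM points in Klf3, Klf4, the first region of Klf6, Klf7 and Klf10, of which only Klf6 and Klf10 keep this by the line with the lowest p-value. The first region of Klf6 has a single line in each library, so the choice of line could not change it.

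The wider Sp/KLF family mostly stood lower in 3d DM. Of 16 relatives 9 passed the filter, and 7 of these had both 3d DM libraries below both GM libraries (37.0% of all tested genes). The median log2 fold change was −0.90, and −0.68 after median-of-ratios scaling. Sp8, at 47.0 and 91.3 in GM against 12.4 and 10.1 in 3d DM, fell by 2.45 on the log2 scale (limma, adjusted p = 0.00122, and up to 0.124 when any library but GM replicate 1 was left out). Sp6, at 40.9 and 47.2 against 4.67 and 19.8, fell by 2.05 (adjusted p = 0.0160, 0.0760 after scaling, and up to 0.408 when any library but GM replicate 1 was left out). Both are low in these cells.

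Among 14 regulators placed upstream of KLF genes, 13 were tested, 4 rose and none fell, beside 7.01% and 9.96% of all tested genes. Mef2c, which acts in the ERK5 pathway to Klf2 and Klf4, went from 81.0 and 68.2 to 2742 and 2182, a log2 fold change of 5.02 (limma, adjusted p = 8.676e-27). The call was kept without any 1 library. Mef2a (636.2 and 386.4 against 1002 and 1645), Mef2d (657.1 and 545.9 against 1300 and 1912) and Foxo1 (172.4 and 142.5 against 309.3 and 555.5) rose by 1.37, 1.40 and 1.40 on the log2 scale (limma, adjusted p = 0.0121, 0.00932 and 0.0194). Each of these calls was lost when any of the 4 libraries was left out (adjusted p up to 0.600, 0.380 and 0.443). The kinase gene of ERK5 itself, Mapk7, had 320.7 and 255.9 against 169.7 and 297.1.

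Of 12 cofactors and ubiquitin ligases, all tested, 1 rose and 1 fell, close to the 17.0% of all tested genes that were called. Fbxw7, part of a ubiquitin ligase known to act on Klf2 and Klf5, had 217.7 and 163.6 in GM against 646.2 and 660.4 in 3d DM (log2 fold change 1.79, limma adjusted p = 0.000972, and up to 0.214 when any library but GM replicate 1 was left out). Ctbp2, a corepressor that binds Klf3, had 496.1 and 552.9 against 168.1 and 256.2 (log2 fold change −1.33, limma adjusted p = 0.0244, and up to 0.451 without any 1 library). Of 13 genes reported as KLF targets 9 were tested, 2 rose and 1 fell, beside 7.01% and 9.96% of all tested genes. The cell cycle inhibitor gene Cdkn1a, a target named for Klf4 and Klf6, went from 3444 and 1416 to 15900 and 19010 (log2 fold change 2.98, limma adjusted p = 1.082e-11, and 0.0634 and 0.0581 without 3d DM replicate 1 and 2). Npnt, a matrix protein gene named as a Klf2 and Klf4 target in fusion, went from 1302 and 1866 to 2829 and 4973 (log2 fold change 1.27, adjusted p = 0.0165, and up to 0.435 without any 1 library). Ccnd1, the gene of cyclin D1, went from 2395 and 4037 to 178.5 and 287.4 and kept its call without any 1 library (log2 fold change −3.77, limma adjusted p = 2.155e-16). These genes also change with cell cycle exit and differentiation, and the part of the KLF genes in them was not tested.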

How the data were processed

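The authors used HISAT2 (v2.1.0) for alignment to mm10, and exomePeak for peaks of every immunoprecipitated library over its input. The deposited peak lists give a p-value and a fold (ratio over input) for each transcript peak. The deposited expression table holds a normalized signal made by the authors with edgeR. All 4 columns sum to 12534657 to 12536233, which is no depth. Pairs of low values recurred in 47.4% and 55.0% of 2171 genes within GM and 3d DM and in 0.5% between states, so the spread between replicates may not be that of independent counts. The depth is unknown and no counting error is given.

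Symbols came from RefSeq by Entrez ID (93.0% matched). A gene entered the test with 2 libraries at or over a value of 25.1, which is 2 cpm by column total. The test was limma 3.58.1 (R 4.3.3) with its trend option on log2(value + 1), and p-values were adjusted by Benjamini-Hochberg to a threshold of 0.05. Such fold changes understate those of low genes. In the main expression fit the standard errors came from the trend alone, and a gene's own spread had no weight. It had weight when a 3d DM library was left out, but not when a GM library was. With median-of-ratios scaling a gene's own spread had weight, and the limma adjusted p was 0.0011 for Mef2c and 0.00294 for Ccnd1. In the region fit the trend weighed more than a region's own spread. Peak lines on the same strand sharing 1 bp were merged, regions were the union of the 4 lists, and their value was the highest fold. Transcripts were GENCODE M21, matched without the ID version (99.8% placed). The tests were checked on simulated data with 200 genes or regions changed 4-fold. The expression test recovered 173 of the 200 with 4 false calls, and the region test 135 with 12 false calls. The simulated noise was independent between libraries, with a spread set by level for genes and a single spread for regions. Differences in scale between replicates, recurring values and correlated replicate deviations were not simulated, so recovery in the data themselves may differ. Smaller changes were not simulated. The members, lists and tests were chosen with earlier results of these data known. All members were named, with list genes past the threshold and the state markers. Alternatives covered scaling, filter, pseudocount, trend, replicate block, peak thresholds and leaving out each library.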

Additional observations from a re-analysis of the deposited data

How the results depend on the processing

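With 2 libraries in each state, the number of calls changed with the library left out. In the fits without a 3d DM library a gene's own spread had weight, unlike in the main fit. The counts of calls in those fits thus reflect the changed fit as well as the missing library. Of 1936 genes called, 1250 were called with the filter in all 4 libraries and 145 to 1252 when 1 library was left out, lowest without 3d DM replicate 1. Members called were 0 to 1 when 1 library was left out, and 3 with median-of-ratios scaling and with trimmed-mean scaling, where 51.6% and 50.5% of all calls were higher in 3d DM in place of 41.3%. The replicate numbers are shared between states, but nothing says that they pair the samples (deviations correlated at 0.29 for expression and 0.131 for regions). The replicate block gave 1298 genes and 1 member, and ended the calls of Sp6 (adjusted p = 0.0581), Mef2a (0.107), Mef2d (0.0954), Foxo1 (0.106), Ctbp2 (0.132) and Npnt (0.130). Both of the next settings were chosen after seeing the data: median-of-ratios scaling with replicate block gave 3589 genes and 5 members (Klf3 at 0.87 and Klf10 at 0.83 added), and without the intensity trend 2297 genes and 1 member. Klf4, at −0.04, turned to 0.19 with median-of-ratios scaling (with the block and without the trend too), 0.18 with trimmed-mean scaling, 0.65 without GM replicate 1 and 0.25 without 3d DM replicate 1 (range without 1 library −0.73 to 0.65), and Klf9 to −0.23 without GM replicate 2 and −0.05 without 3d DM replicate 2 (−0.23 to 0.55). The difference in member peaks of −1.5 became 0.5 with a peak p-value of at most 1e-05, 0 with a fold of at least 4, and −3.0 to 0 when 1 library was left out. Members with a peak in all 4 libraries were 8 and 6 under these stricter limits, in place of 9. No alternative called a region. Region differences that changed sign were Klf2, to −0.21 with the stricter p-value and with the line of the lowest p-value, and −0.49 without 3d DM replicate 2 (−0.49 to 0.68 without 1 library), the Klf5 CDS end, to 0.14 without GM replicate 1 (−0.76 to 0.14), the second of Klf6, to 0.008 with centred libraries and 0.62 without GM replicate 1 (−0.83 to 0.62), Klf9, to −0.21 without 3d DM replicate 1 (−0.21 to 1.24), Klf10, to 0.39 with the median fold of the lines, and Klf13, to 0.031 without GM replicate 2 (−1.42 to 0.031). The cause was not tested in any of these. All other alternatives left the single members and regions on the same side, in 216 comparisons, apart from the gains and losses of calls given with Klf2, Klf3, Klf5, Klf6 and Klf10.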
